A study of Rattus norvegicus with 23 samples.

Results

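The Slc25 family of mitochondrial carrier genes was described in rat brain endothelial cells grown as primary cultures with pericytes and astrocytes, a cell model of the blood-brain barrier. The members were all protein-coding rows of the deposited count table whose gene symbol is Slc25a followed by a digit, which gave 46 genes of 32883 gene identifiers. This rule leaves out carriers of the same family under other symbols, such as the uncoupling protein Ucp2. The 4 groups were normoxia (n = 6), OGD/R (n = 6), OGD/R plus DMT (n = 5, called the DMT group here) and OGD/R plus DMT plus BD1063 (n = 6, called the BD1063 group here). OGD/R withholds oxygen and glucose from cultured cells and then restores them, to mimic stroke, DMT is N,N-dimethyltryptamine, a ligand of sigma-1 and serotonin receptors, and BD1063 is a sigma-1 receptor antagonist. Every insert of the BD1063 group also received DMT, so neither agent was given without OGD/R and BD1063 was not given alone in the groups used here. Endothelial cells of 1 insert gave 1 library, and doses, durations, animal age and strain are not given in the sources used here. Since no label says that inserts came from separate preparations, p-values measure the spread between these inserts, which may be technical.

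Slc25 proteins are nuclear-encoded carriers of the inner mitochondrial membrane, with a few that sit in other membranes. Each is built from a repeated pair of helices and exchanges or co-transports a small solute, such as ADP for ATP, phosphate with protons, or aspartate for glutamate. Brain endothelial cells make much of their ATP by glycolysis, and their mitochondria also handle redox exchange, amino acids, iron and the precursors of biosynthesis.

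Of the 46 members, 35 passed the filter on low counts and were tested, and 11 did not. The 11 members left untested were Slc25a18, Slc25a21, Slc25a23, Slc25a27, Slc25a31, Slc25a34, Slc25a41, Slc25a43, Slc25a47, Slc25a48 and Slc25a54, with 0 to 125 counts each over all 23 libraries together. The gene with no read in any library was Slc25a41, which codes an ATP-Mg/phosphate carrier. Slc25a18, Slc25a31 and Slc25a27, which code a glutamate carrier, the testis form of the ADP/ATP carrier and a brain uncoupling-protein-like carrier, had 3, 1 and 125 counts in all. Slc25a34, whose substrate is not settled, had 42 counts over the 6 normoxia libraries and 15 over the 6 OGD/R libraries, with 6 to 9 and 1 to 6 counts per library. At such counts a difference in these 11 genes was not tested, and their levels are at the floor of what this depth shows.

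The libraries held 12162759 to 18565166 counts, and the members together took 0.158% to 0.205% of them. Levels are given in CPM, counts brought to a common library total, after scaling by the trimmed mean of M values (TMM). These values are not divided by transcript length, so levels are compared between groups for 1 gene, not between genes. Of the 12 endothelial markers listed, 10 were found and their summed level was 7020 to 8593 CPM in every library, while Pecam1 and Abcb1a were not analysed here. Summed over the 6 fibroblast and meningeal markers found, the level was 381 to 908 CPM in normoxia, 119 to 400 in OGD/R, 133 to 381 in the DMT group and 85.8 to 378 in the BD1063 group, with Slc6a13 at 0 in all 4 groups. The 10 pericyte and smooth muscle markers summed to a mean of 221 CPM in normoxia, 271 in OGD/R, 196 in the DMT group and 160 in the BD1063 group (122 to 334 over the libraries), and the 7 astrocyte markers to 104 to 212 CPM, with Slc1a2 at 0 in all groups but OGD/R and Aqp4 at 0 in OGD/R. Of the 7 astrocyte markers 1 passed the filter on low counts. Against normoxia it was called higher in OGD/R (log2 difference 0.30) and not called in the DMT or BD1063 group. Microglia and leukocyte markers reached at most 6.59 CPM in a library, and neuron and oligodendrocyte markers at most 7.90 CPM. The part of the fibroblast signal in the carrier results against normoxia was not tested, and in these bulk lysates fewer cells of a type and less RNA per cell cannot be told apart.

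Libraries OGD/R 5 and DMT 5 stood apart before any comparison. DMT 5 was the highest or lowest library of its group for 28 of the 35 tested members and OGD/R 5 for 24 of 35. Their counts held 3.33% and 3.53% of cytosolic ribosomal protein genes, where the rest of OGD/R ranged from 2.02% to 2.48% and the rest of the DMT group from 1.94% to 2.12%. Normoxia 5 was the highest or lowest library for 17 of 35 members, more than any other normoxia library, though OGD/R 6 and DMT 1 had 16 each. The ribosomal protein share of normoxia 5 was 2.50%, where the rest of normoxia ranged from 1.88% to 2.37%. OGD/R 3 differed in another way, with 1.24% of its counts in ribosomal, small nuclear, small nucleolar and other structural RNA genes. The remaining libraries had 0.0785% to 0.176%. Long noncoding RNAs and pseudogenes were not in this share. Without OGD/R 3, OGD/R 5 and DMT 5 together, 8 of 11 calls remained in OGD/R against normoxia, and Slc25a2, Slc25a17 and Slc25a35 were lost. Without OGD/R 5 and DMT 5, the calls of Slc25a17 and Slc25a35 were lost and Slc25a46 was gained in OGD/R against normoxia, and Slc25a51 was lost and Slc25a13 and Slc25a16 were gained in the DMT group against normoxia.

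**Figure D1:**
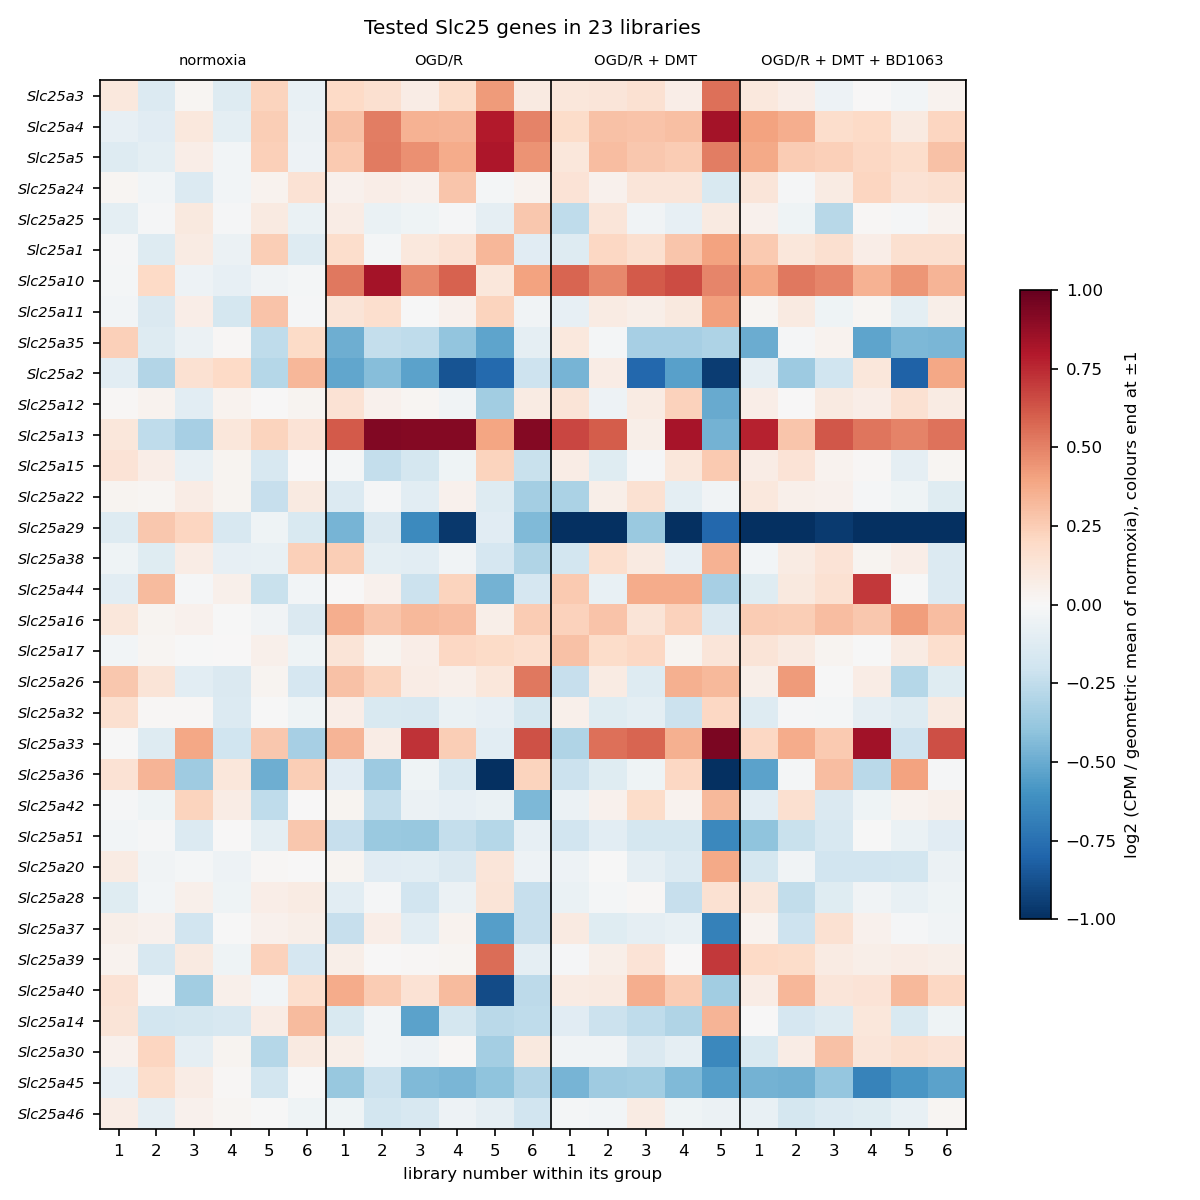
Heat map of tested Slc25 genes (rows, ordered by role) in the 23 libraries (columns, by group), coloured by log2 of CPM over the geometric mean of the 6 normoxia libraries, with colours ending at ±1. Slc25a13 is red across OGD/R and Slc25a29 blue in the DMT and BD1063 groups, and the columns of OGD/R 5 and DMT 5 differ from their neighbours in many rows.

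Promoters of 4 members are printed because they belong to genes that rose or fell after OGD/R, and because a pair of ADP/ATP carriers with like changes can be compared by eye. Each runs from 250 bases before to 50 bases after the annotated start, 5' to 3' on the gene's strand, from RefSeq on the build GRCr8, which is not the build of the count table. Capitals mark matches, on either strand, to 1 of 5 motifs: GCGCATGC (the core bound by NRF1, a regulator of nuclear genes for mitochondria), CCGGAAG (ETS core), CACGTG (E-box), TGACGTCA (CRE) and TNAAGGTCA (ERR site). No pair of these motifs overlapped within the 4 windows.
Slc25a4 (ADP/ATP carrier 1, chr16:52805271-52805570, plus strand): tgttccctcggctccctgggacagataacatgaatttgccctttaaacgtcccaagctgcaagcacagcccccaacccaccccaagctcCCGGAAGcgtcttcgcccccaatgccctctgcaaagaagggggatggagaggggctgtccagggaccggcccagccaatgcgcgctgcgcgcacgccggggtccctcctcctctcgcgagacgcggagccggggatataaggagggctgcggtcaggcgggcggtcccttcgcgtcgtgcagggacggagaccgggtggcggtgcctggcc
Slc25a5 (ADP/ATP carrier 2, chrX:120897366-120897665, plus strand): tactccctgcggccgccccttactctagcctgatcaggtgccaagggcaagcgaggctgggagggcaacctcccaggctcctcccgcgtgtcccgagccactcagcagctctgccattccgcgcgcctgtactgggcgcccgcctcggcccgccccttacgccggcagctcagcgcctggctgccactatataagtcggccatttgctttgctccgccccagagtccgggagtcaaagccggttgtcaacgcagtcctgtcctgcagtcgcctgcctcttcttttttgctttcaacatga
Slc25a13 (aspartate/glutamate carrier 2, chr4:35328311-35328610, minus strand): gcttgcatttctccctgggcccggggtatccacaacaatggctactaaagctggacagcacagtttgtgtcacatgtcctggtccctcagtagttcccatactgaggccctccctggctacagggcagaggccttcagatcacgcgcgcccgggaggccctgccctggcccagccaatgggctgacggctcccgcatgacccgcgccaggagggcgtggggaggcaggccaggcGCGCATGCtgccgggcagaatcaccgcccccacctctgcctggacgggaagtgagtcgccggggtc
Slc25a51 (NAD carrier, chr5:64458955-64459254, minus strand): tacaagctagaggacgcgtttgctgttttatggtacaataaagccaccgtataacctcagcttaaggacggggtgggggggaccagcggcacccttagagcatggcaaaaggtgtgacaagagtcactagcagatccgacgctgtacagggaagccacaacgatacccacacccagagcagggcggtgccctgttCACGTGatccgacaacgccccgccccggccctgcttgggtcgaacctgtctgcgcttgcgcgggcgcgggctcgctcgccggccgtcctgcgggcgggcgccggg

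A promoter window was found for 39 of the 46 members, and for all 11 members that rose or fell after OGD/R. The NRF1 core was in 1 of the 11, Slc25a13, starting 16 bases before the annotated start, and in 2.47% of 33469 promoters. The ETS core was in Slc25a4, 161 bases before the start, and in Slc25a17, and in 8.75% of promoters. The E-box was in Slc25a51, 55 bases before the start, and in Slc25a2, and in 6.42% of promoters. The CRE and ERR letters were in none of the 11 windows and in 1.83% and 1.20% of promoters. The Slc25a5 window held none of the 5 motifs, whereas the Slc25a4 window held the ETS core, although both genes rose. Over the 39 members with a window, the ETS core was in 7 and the E-box in 4. Each member gave 1 window, while a gene with several windows counted once per window among all promoters. The median GC share was 51.7% over all promoters and ranged from 52.7% (Slc25a2) to 73.7% (Slc25a29) over the 11. The shares of all promoters are thus no matched baseline. A match describes letters in the window and is not evidence of binding.

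In OGD/R against normoxia, 6 of the 35 tested carriers rose and 5 fell. Those that rose were both ADP/ATP carriers (Slc25a4 and Slc25a5), the dicarboxylate carrier Slc25a10, the aspartate/glutamate carrier Slc25a13, the coenzyme A-related carrier Slc25a16 and the peroxisomal cofactor carrier Slc25a17. Those that fell were the basic amino acid carriers Slc25a2 and Slc25a29, Slc25a35 and Slc25a45, whose substrates are less settled, and the NAD carrier Slc25a51. The log2 fold changes lay between -0.55 and 0.78. The share called was 31.4% of members against 35.5% of all 13834 genes tested (18.9% higher and 16.7% lower), by edgeR's quasi-likelihood test with Benjamini-Hochberg adjustment over all genes at 0.05. The median log2 fold change was -0.04 over the members and 0.01 over all genes, and the median size without sign was 0.13 against 0.21. Slc25a4, Slc25a5, Slc25a13 and Slc25a45 had libraries that did not overlap between the groups, which held for 16.4% of all genes. On the deposited CPM tested with limma, 4 rose and 5 fell.

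**Figure D2:**
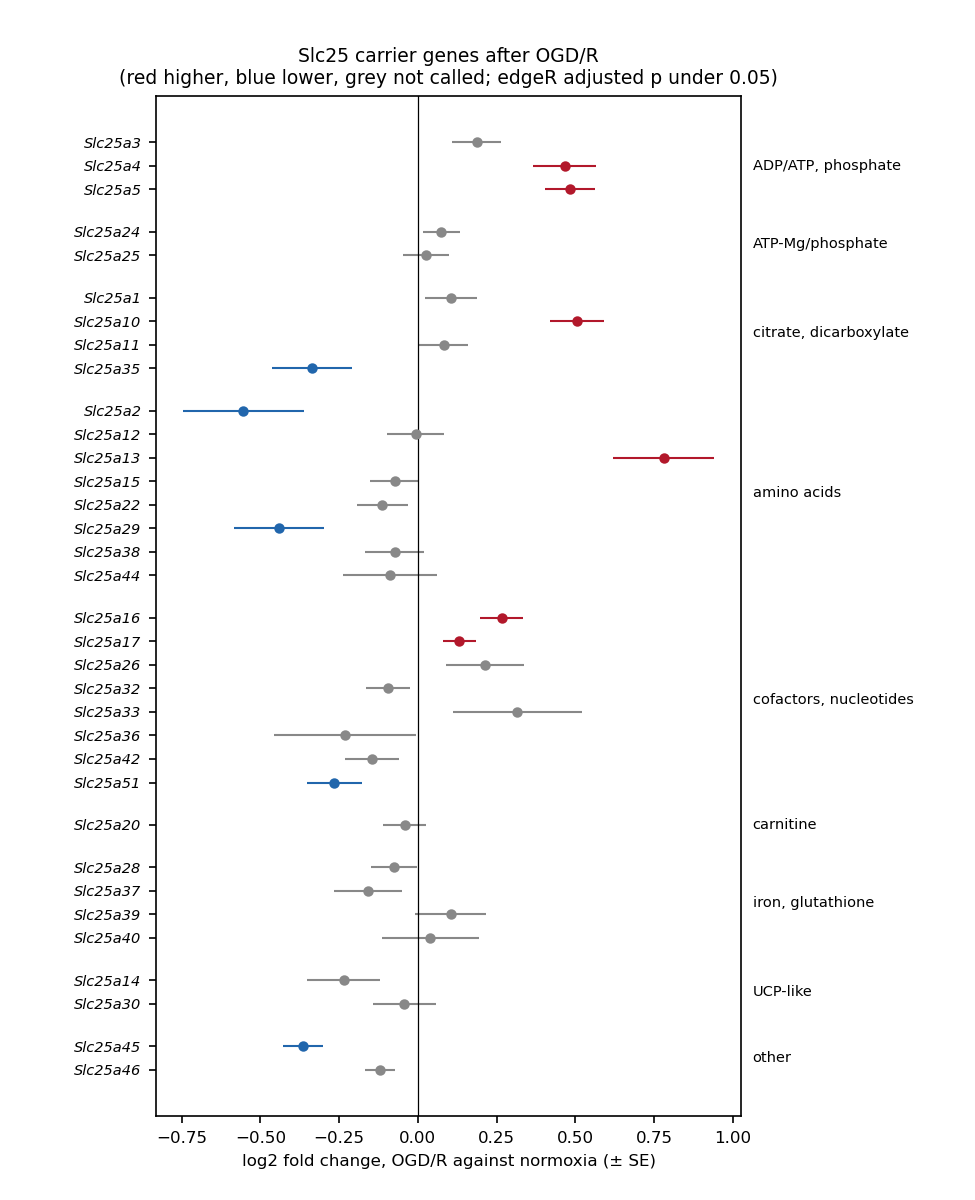
Log2 fold change in OGD/R against normoxia with its standard error for the tested carriers shown, grouped by role. Red points (6) were called higher, blue points (5) lower and grey points not called. Slc25a13 lies farthest right at 0.78 and Slc25a2 farthest left at -0.55.

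The ADP/ATP carriers, which export ATP from the matrix in exchange for ADP, rose together. Slc25a4 was 283, 291 and 362 CPM (lowest, median, highest) in normoxia and 374, 410 and 529 CPM in OGD/R, so all 6 OGD/R libraries lay above all 6 normoxia libraries. Its log2 fold change was 0.47 ± 0.10 (SE; edgeR adjusted p = 0.000833). The DMT group libraries 1 to 5 held 347, 374, 372, 376 and 545 CPM, and the BD1063 group 326, 353 and 404. DMT 1 to 4 lay near or below the low end of the OGD/R range, and DMT 5 lay above its high end.

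Slc25a5 was 109, 116 and 140 CPM in normoxia and 143, 163 and 209 CPM in OGD/R, again with no overlap. Its log2 fold change was 0.48 ± 0.08 (1.40-fold; edgeR adjusted p = 4.53e-05). The 5 DMT libraries held 128, 147, 144, 142 and 170 CPM and the BD1063 group 134, 141 and 155, between the normoxia and OGD/R medians in all but 1 library. Against normoxia, Slc25a5 was higher in the DMT group by 0.29 ± 0.08 (edgeR adjusted p = 0.0125) and in the BD1063 group by 0.25 ± 0.08 (0.0192), comparisons that share the normoxia libraries.

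The phosphate carrier Slc25a3, which brings in the phosphate for ATP synthesis, was 285, 308 and 365 CPM in normoxia and 331, 353 and 421 CPM in OGD/R. All 6 OGD/R libraries lay above the normoxia mean but the groups overlapped, and the difference of 0.19 ± 0.08 did not pass (edgeR adjusted p = 0.0690), though it did in 3 of 26 alternatives. A pseudogene row named Slc25a6, which is no member, held 7162 counts and had a log2 difference of 0.54 with edgeR adjusted p = 0.000956. The sources used here do not say how reads that fit both it and the close ADP/ATP carriers were assigned, so the levels of Slc25a4 and Slc25a5 carry that uncertainty. The calcium-regulated ATP-Mg/phosphate carriers Slc25a24 and Slc25a25 were not called, at 131 ± 8.34 against 138 ± 10.4 CPM and 25.5 ± 1.41 against 26.0 ± 2.54 CPM (mean ± SD, normoxia against OGD/R).

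Among carriers of citrate and other organic acids, 1 of 4 tested rose and 1 fell. Slc25a10, which exchanges malate or succinate for phosphate, was 11.9, 12.4 and 14.5 CPM in normoxia and 13.6, 17.9 and 22.5 CPM in OGD/R. All OGD/R libraries lay above the normoxia mean, with an overlap of normoxia 2 and OGD/R 5, and the log2 fold change was 0.51 ± 0.09 (1.42-fold; edgeR adjusted p = 6.38e-05). The DMT libraries held 18.9, 17.6, 19.3, 19.9 and 17.7 CPM and the BD1063 group 15.998, 16.8 and 18.2, and both groups lay above every normoxia library. Of the 35 tested members, 3 in the DMT group and 5 in the BD1063 group did not overlap normoxia. This held for 12.7% and 18.3% of all genes. Slc25a35 fell from 4.62 ± 0.604 to 3.66 ± 0.430 CPM (SD, n = 6 each), a log2 change of -0.34 ± 0.13 (edgeR adjusted p = 0.0428, lost without normoxia 1, 4 or 6 or OGD/R 1, 4 or 5). Its levels were 4.09 ± 0.601 CPM in the DMT group and 3.74 ± 0.699 CPM in the BD1063 group. Slc25a1, the citrate carrier that supplies acetyl groups to the cytosol, and Slc25a11, the oxoglutarate carrier of the malate-aspartate shuttle, were not called, at log2 differences of 0.11 ± 0.08 and 0.08 ± 0.08.

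Of 8 amino acid carriers tested, 1 rose and 2 fell. Slc25a13 (citrin), which exports aspartate from the matrix in the malate-aspartate shuttle, was 4.46, 6.06 and 6.52 CPM in normoxia and 7.35, 10.6 and 10.7 CPM in OGD/R. The groups did not overlap, and its log2 fold change of 0.78 ± 0.16 (1.72-fold; edgeR adjusted p = 0.000568) was the largest rise among the members. The DMT libraries 1 to 5 held 8.90, 8.51, 5.84, 9.94 and 4.05 CPM, from below the lowest normoxia library to inside the OGD/R range. The BD1063 group held 6.78, 8.16 and 9.53 CPM, all above the highest normoxia library.

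The close relative of Slc25a13, Slc25a12 (aralar), carries the same substrates and is the main form in muscle and brain. It was 25.02 ± 0.893 CPM in normoxia and 24.9 ± 2.77 CPM in OGD/R, a log2 difference of -0.01 ± 0.09 that was not called (edgeR adjusted p = 0.959). Slc25a29, a carrier of arginine, lysine and ornithine, was 4.04, 4.24 and 5.44 CPM in normoxia and 2.30, 3.29 and 4.17 CPM in OGD/R. All 6 OGD/R libraries were below the normoxia mean, with overlap, and the log2 change was -0.44 ± 0.14 (0.74-fold; edgeR adjusted p = 0.0189, and 0.0525 without normoxia 2). The DMT libraries held 2.24, 2.03, 3.49, 2.08 and 2.61 CPM and the BD1063 group 1.83, 2.18 and 2.32, each below every normoxia library.

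Slc25a2, known in humans as a second ornithine carrier, fell from 2.41 ± 0.439 to 1.64 ± 0.271 CPM, a log2 change of -0.55 ± 0.19 (0.68-fold; edgeR adjusted p = 0.0281, lost without normoxia 4 or 6 or OGD/R 4 or 5). Its counts were 30 to 48 per library in normoxia and 21 to 33 in OGD/R. A filter of at least 50 counts in 5 libraries left it untested. Its levels were 1.69 ± 0.491 CPM in the DMT group and 2.20 ± 0.601 CPM in the BD1063 group. It is a near copy of Slc25a15, the main ornithine carrier of the urea cycle, and the split of shared reads is likewise unstated. Slc25a15 itself was 27.1 ± 1.94 against 25.8 ± 3.27 CPM and was not called. The glutamate carrier Slc25a22, the glycine carrier Slc25a38 that feeds heme synthesis, and Slc25a44, a carrier of branched-chain amino acids, were not called, with log2 differences of -0.11 ± 0.08, -0.07 ± 0.09 and -0.09 ± 0.15.

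Of 9 cofactor and nucleotide carriers tested, 2 rose and 1 fell. Slc25a16, linked to coenzyme A uptake, was 35.8, 39.9 and 42.9 CPM in normoxia and 41.3, 48.6 and 51.0 CPM in OGD/R. Only OGD/R 5 lay inside the normoxia range, and the log2 fold change was 0.27 ± 0.07 (1.20-fold; edgeR adjusted p = 0.00352). The DMT libraries held 46.5, 48.3, 43.3, 46.4 and 35.9 CPM and the BD1063 group 46.9, 48.5 and 53.1. Thus 4 DMT libraries and all BD1063 libraries lay above the normoxia range. The call in OGD/R against normoxia was lost when limma was run on the deposited CPM.

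Slc25a17, which serves peroxisomes rather than mitochondria and carries coenzyme A, FAD and NAD, rose from 36.6 ± 0.898 to 40.0 ± 1.99 CPM. Its log2 fold change of 0.13 ± 0.05 had edgeR adjusted p = 0.0495. The call was lost in 23 of 26 alternatives, among them 11 of the 12 that left out 1 library. The alternatives that kept it include a refit of the same counts. Levels were 41.1 ± 2.85 CPM in the DMT group and 38.7 ± 1.71 CPM in the BD1063 group. Slc25a51, which brings NAD into the matrix, was 20.8, 22.5 and 27.5 CPM in normoxia and 17.6, 19.1 and 21.6 CPM in OGD/R. All OGD/R libraries were below the normoxia mean and the groups overlapped, with a log2 change of -0.27 ± 0.09 (0.83-fold; edgeR adjusted p = 0.0211, and 0.0581 without normoxia 6). Its levels in the 5 DMT libraries were 20.0, 21.2, 20.3, 20.3 and 14.6 CPM, and the BD1063 group held 17.3, 20.8 and 22.8. A pseudogene row named Slc25a52, a close copy of Slc25a51, held 1233 counts, and the split of shared reads is again unstated.

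The other coenzyme A carrier, Slc25a42, was 19.1, 22.7 and 26.6 CPM in normoxia and 16.6, 21.6 and 23.2 CPM in OGD/R and was not called (-0.15 ± 0.09; edgeR adjusted p = 0.195). Slc25a26 (S-adenosylmethionine), Slc25a32 (folate and FAD), and Slc25a33 and Slc25a36 (pyrimidine nucleotides) were not called either. Their log2 differences were 0.21 ± 0.12, -0.10 ± 0.07, 0.32 ± 0.20 and -0.23 ± 0.23.

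The carnitine/acylcarnitine carrier Slc25a20, the gate for long-chain fatty acids into beta-oxidation, was 65.0, 66.8 and 71.0 CPM in normoxia and 60.7, 63.6 and 72.9 CPM in OGD/R. These ranges overlapped and it was not called (-0.04 ± 0.07). None of the 4 iron and glutathione carriers was called. The mitoferrins Slc25a28 and Slc25a37, which import iron, had log2 differences of -0.08 ± 0.07 and -0.16 ± 0.11, and the glutathione carriers Slc25a39 and Slc25a40 0.10 ± 0.11 and 0.04 ± 0.16. Of the uncoupling-protein-like carriers, Slc25a14 was 5.95 ± 0.875 against 5.04 ± 0.567 CPM and Slc25a30 was 22.5, 28.1 and 31.8 against 21.6, 27.2 and 29.3 CPM, and neither was called.

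Slc25a45 was the 1 member that fell with no overlap between the groups. It was 36.5, 41.6 and 46.9 CPM in normoxia and 30.2, 31.6 and 35.7 CPM in OGD/R, so that every OGD/R library was below every normoxia library. The log2 change was -0.36 ± 0.06 (0.78-fold; edgeR adjusted p = 0.000109). The DMT libraries held 29.99, 32.4, 32.5, 30.5 and 28.3 CPM and the BD1063 group 26.1, 29.1 and 31.6, all below the normoxia range. Slc25a46, which lies in the outer membrane and takes part in mitochondrial fission and fusion, was 53.8 ± 2.19 against 49.6 ± 2.34 CPM and just missed the threshold (-0.12 ± 0.05; edgeR adjusted p = 0.0544). It passed in 9 of 26 alternatives, among them the fit without OGD/R 5 and DMT 5 (-0.14; edgeR adjusted p = 0.0389) and DESeq2 (adjusted p = 0.0220).

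**Figure D3:**
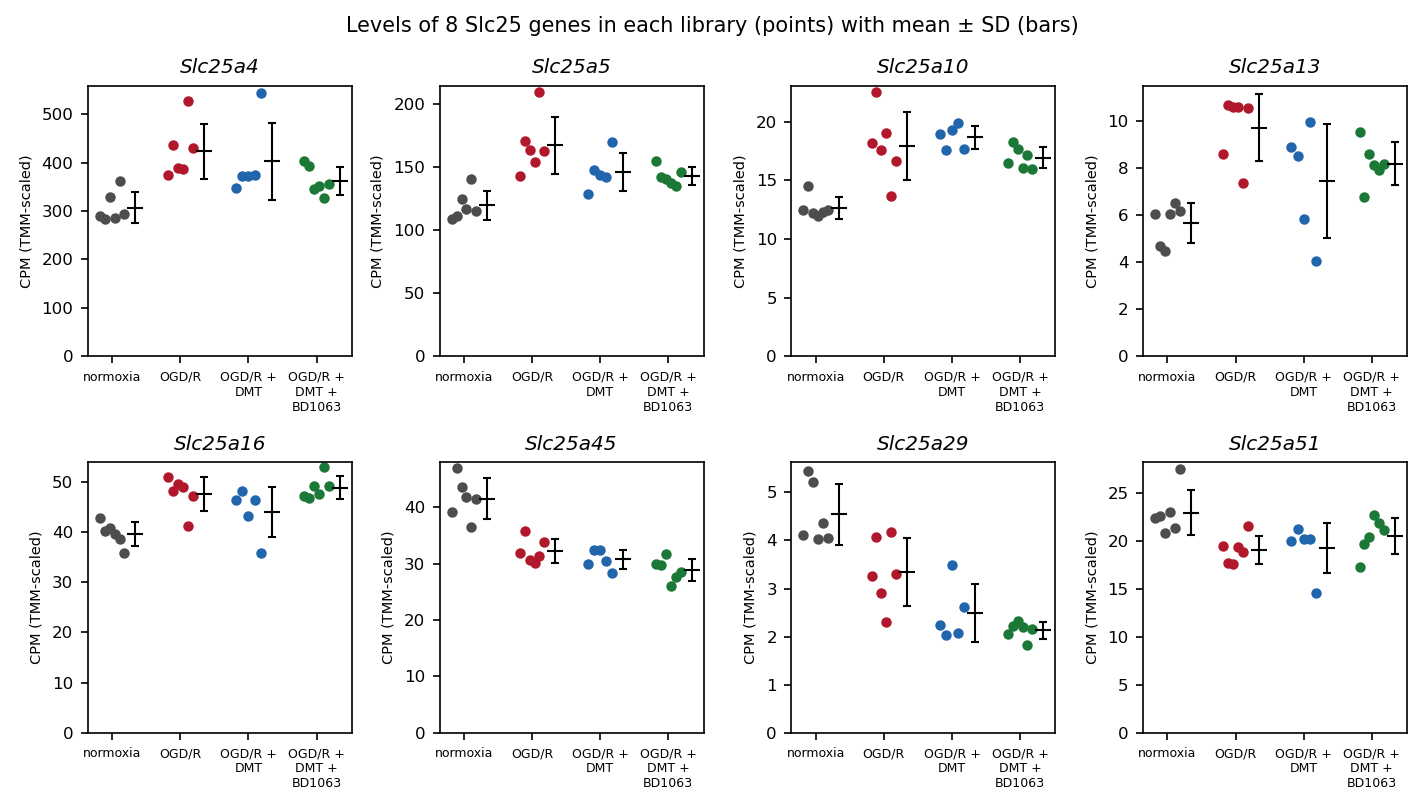
CPM of 8 carriers in each library (points, coloured by group) with mean ± SD (bars), on axes that start at 0. Slc25a4, Slc25a5 and Slc25a13 show OGD/R above normoxia without overlap, Slc25a45 shows the reverse, and Slc25a29 has its lowest mean, 2.13 CPM, in the BD1063 group. The high DMT point of Slc25a4 is DMT 5 at 545 CPM.

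Genes that work beside the carriers were counted from 10 lists of listed partners, against 18.9% of all genes higher and 16.7% lower in OGD/R against normoxia. All 3 voltage-dependent anion channels, the pores of the outer membrane, rose, with Vdac1 at 0.36 ± 0.06 and Vdac2 at 0.30 ± 0.09. In the pathway that imports carriers into the inner membrane 8 of 12 rose and none fell, led by the outer membrane channel Tomm40 at 0.46 ± 0.06 and the small chaperone Timm8a1 at 0.88 ± 0.16. Of 10 malate-aspartate shuttle and citrate enzymes 9 rose, among them the mitochondrial aspartate aminotransferase Got2 at 0.48 ± 0.06. Of 10 folate and one-carbon enzymes 7 rose and none fell, with a median log2 difference of 0.62 over the list, led by Mthfd1l at 0.71 ± 0.06 and Mthfd1 at 0.81 ± 0.07. Mthfd1 acts in the cytosol and Mthfd1l in mitochondria, and Slc25a32, which carries folate between them, was not called. In the DMT and BD1063 groups against normoxia, 12.8% and 13.1% of all genes were higher. There 3 and 1 of the 12 import genes rose, and 0 and 0 of the 3 pores. The shuttle and citrate enzymes had 8 and 7 of 10 higher, and the folate enzymes 6 and 7 of 10.

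The remaining lists moved in smaller shares. Among 13 other inner membrane carriers and channels 4 rose and 2 fell. They were led by the serine carrier Sfxn1 at 0.48 ± 0.05 and the uncoupling protein Ucp2 at -0.23 ± 0.05. Ucp2 belongs to the same carrier family but is not a member under the symbol rule used here. Of 9 glutathione enzymes and regulators 3 rose, led by Gsr at 0.25 ± 0.05 and the protease subunit Afg3l2 at 0.20 ± 0.05, and of 15 iron-sulfur and heme genes 5 rose, among them Alas1, which starts heme synthesis, at 0.39 ± 0.07. Of 12 genes for mitochondrial DNA upkeep and nucleotides 4 rose and 1 fell, led by Mgme1 at 0.38 ± 0.08 and Ssbp1 at 0.46 ± 0.13. Among 9 carnitine and fatty acid oxidation genes 1 fell, Acadvl at -0.29 ± 0.06, and Cpt1c had -0.23 ± 0.10 without passing. Of 9 regulators of mitochondrial genes tested 1 rose, Ppargc1b at 0.83 ± 0.29, and 1 fell, Pparg at -0.77 ± 0.17.

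DMT added to OGD/R gave no carrier that passed the test against OGD/R alone. The count was 0 of 35 by edgeR, against 0.492% of all genes, with 5 members at an unadjusted p under 0.05 and a lowest adjusted p of 0.236. The background share was 7.77% without DMT 5 (1083 of 13935 genes) and 3.29% without OGD/R 5 and DMT 5 (458 genes), and the count of members stayed at 0 in both. DESeq2, limma voom and limma on the deposited values also called 0. The 95% interval of the log2 difference lay within ±0.5 for 30 of the 35 members. It reached a median of 0.19 to either side of the estimate, and differences smaller than its reach were not resolved. No gene of the partner lists was called either.

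The 5 members with unadjusted p under 0.05 were Slc25a42, Slc25a29, Slc25a5, Slc25a13 and Slc25a46. Slc25a42 held 21.8, 23.4, 25.8, 23.3 and 28.4 CPM in DMT libraries 1 to 5, all above the OGD/R mean of 20.7 ± 2.35 CPM, with a log2 difference of 0.25 ± 0.09 (edgeR adjusted p = 0.236). Slc25a29 differed by -0.43 ± 0.16 (adjusted p = 0.247 by edgeR), with 4 of 5 DMT libraries below the OGD/R mean. Slc25a5 differed by -0.19 ± 0.08 and Slc25a13 by -0.38 ± 0.17, with 4 of 5 DMT libraries below the OGD/R mean for each. Slc25a46 was 53.3 ± 2.13 CPM in the DMT group, with a log2 difference of 0.11 ± 0.05. Without OGD/R 5 and DMT 5, the differences were 0.21 for Slc25a42 and -0.28 for Slc25a13, and 0 members passed.

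BD1063 added to DMT gave no carrier that passed against the DMT group, in a comparison that shares the DMT libraries with the one before. By edgeR 0 of 35 members were called, against 0% of all genes, with 4 members at an unadjusted p under 0.05 and a lowest adjusted p of 0.664. The 95% interval lay within ±0.5 for 30 of 35. Among all genes DESeq2 called 1 and limma voom 0, and neither called a member.

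Those 4 members were Slc25a30, Slc25a20, Slc25a3 and Slc25a16, and in each DMT 5 was the extreme library of its group. Slc25a30, an uncoupling-protein-like carrier, held 26.7, 26.7, 24.8, 25.8 and 17.6 CPM in the DMT libraries and 24.6, 29.9 and 33.6 CPM in the BD1063 group. All 6 BD1063 libraries were above the DMT mean, and the log2 difference was 0.28 ± 0.11 (edgeR adjusted p = 0.664), or 0.19 without OGD/R 5 and DMT 5. Slc25a20 held 64.7, 67.1, 63.2, 61.2 and 87.4 CPM in the DMT libraries and 58.7, 59.3 and 65.4 CPM in the BD1063 group. Its log2 difference was -0.17 ± 0.07, or -0.06 without those libraries.

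Slc25a3 held 339, 341, 349, 329 and 460 CPM in the DMT libraries and 302, 318 and 337 CPM in the BD1063 group, a log2 difference of -0.19 ± 0.08, or -0.08 without those libraries. The Slc25a16 difference was 0.15 ± 0.07, or 0.09 without them. Leaving out OGD/R 5 and DMT 5 left 1 member, Slc25a30, at an unadjusted p under 0.05.

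**Figure D4:**
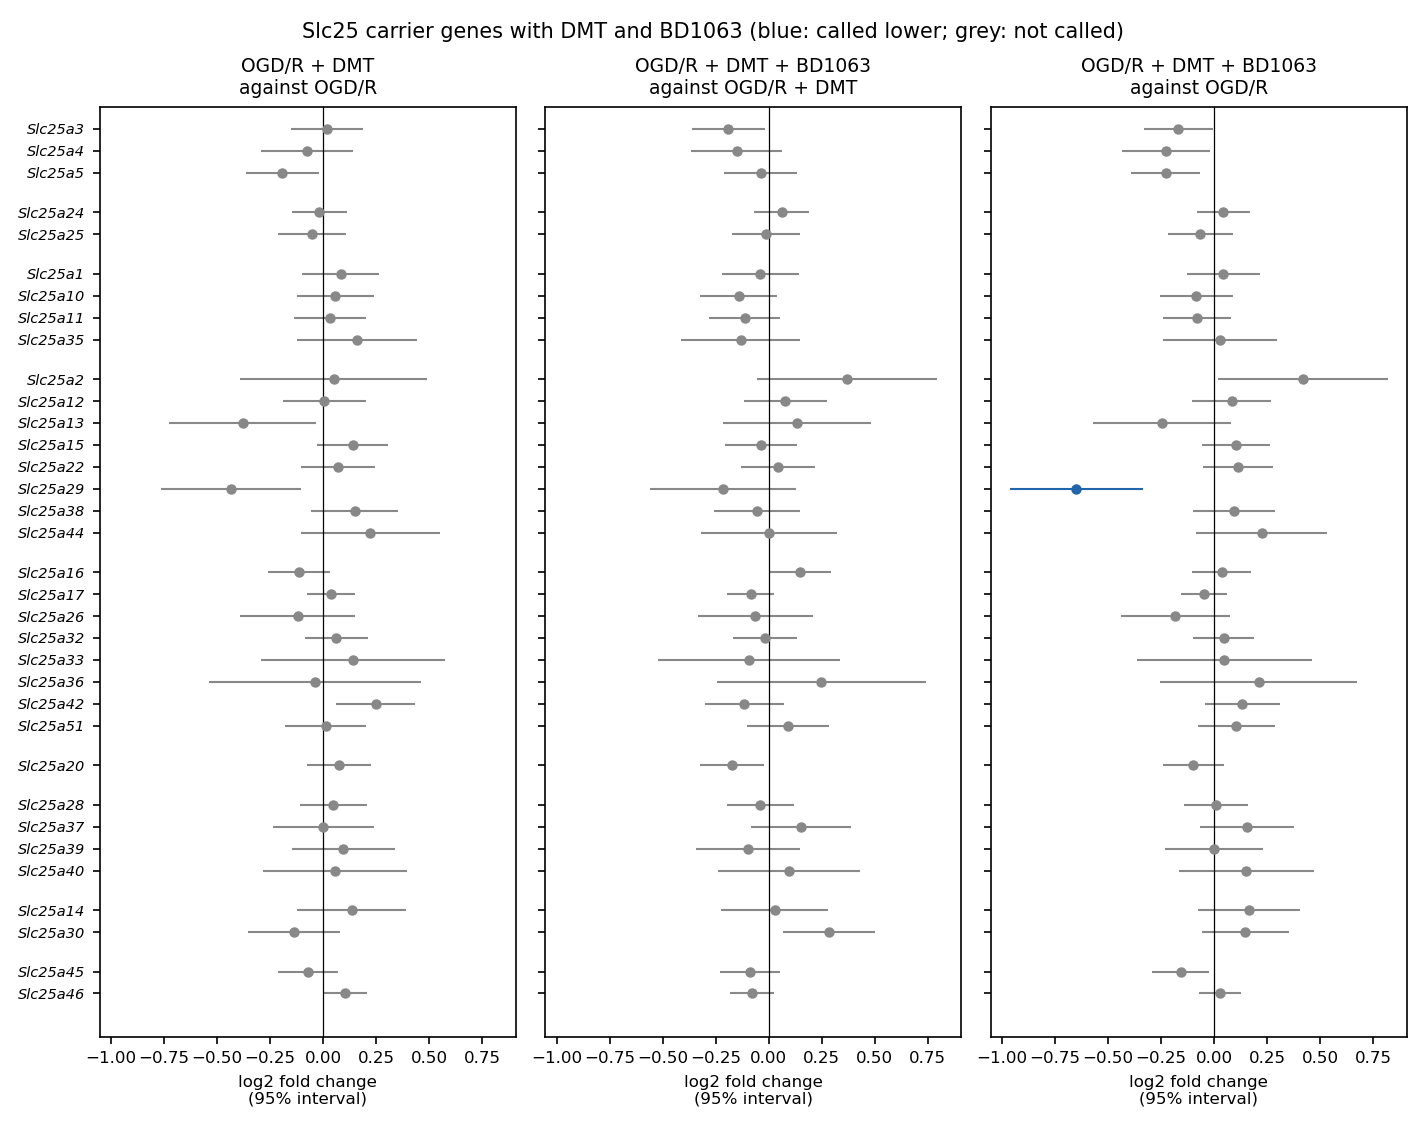
Log2 fold change with 95% interval for the tested carriers shown in 3 comparisons, DMT against OGD/R, BD1063 against DMT, and BD1063 against OGD/R. All points are grey except Slc25a29 in the third panel, called lower at -0.65, and most intervals lie within ±0.5.

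The BD1063 group against OGD/R, the contrast of both agents together, gave 0 carriers higher and 1 lower of 35 (2.86%), against 5.31% of all genes (1.86% higher and 3.46% lower). That background rested on single libraries, with 735 genes called in all, 76 without BD1063 3 or without BD1063 5, 108 without OGD/R 2, 142 without BD1063 4 and 1475 without OGD/R 5 and DMT 5, and its split of 257 higher and 478 lower became 506 and 17 on the deposited values. Slc25a29 fell by 0.65 on the log2 scale (SE 0.15; 95% interval -0.96 to -0.33; edgeR adjusted p = 0.0254), and all 6 BD1063 libraries were below the OGD/R mean although the groups overlapped at OGD/R 4. The call was lost when OGD/R 2, OGD/R 5 or BD1063 3, 4 or 5 was left out, with adjusted p up to 0.0704, and with limma on the deposited values. In this comparison 6 members had an unadjusted p under 0.05, 1 of them higher and 5 lower, whereas limma on log2 of the deposited value plus 1 gave 7 higher and 1 lower on a scale where the median of all genes was 0.10 instead of -0.01. The 6 kept their signs there, with Slc25a5 at -0.10 instead of -0.23, and 7 of the 35 members turned sign, none of them at an unadjusted p under 0.05 in either fit. Of the 8 pericyte and smooth muscle markers tested, 2 were called lower and 0 higher in the same comparison, and their part in the Slc25a29 value was not tested. In the partner lists the glutathione synthesis subunit Gclm (-0.23 ± 0.07) and Ssbp1 (-0.45 ± 0.13) fell and the transcription factor Myc (0.23 ± 0.06) rose.

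Against normoxia, the DMT group had 4 carriers higher and 3 lower (20% of members; 23.7% of all genes) and the BD1063 group 4 higher and 2 lower (17.1%; 26.3% of all genes). With limma on the deposited CPM the DMT group had 1 higher and 2 lower. Both comparisons share the normoxia libraries with that of OGD/R, so they are set side by side and not counted as repeats. For Slc25a29 the log2 change against normoxia was -0.44 ± 0.14 in OGD/R, -0.88 ± 0.16 in the DMT group and -1.09 ± 0.15 in the BD1063 group. Slc25a45 had -0.36 ± 0.06, -0.43 ± 0.07 and -0.52 ± 0.06 in the same order. Slc25a10 had 0.51 ± 0.09, 0.56 ± 0.09 and 0.42 ± 0.09, and was called in each.

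Slc25a13 had 0.78 ± 0.16, 0.40 ± 0.17 and 0.53 ± 0.16 and was not called in the DMT group (edgeR adjusted p = 0.0972). Without OGD/R 5 and DMT 5 it was called there, at 0.56 with adjusted p = 0.00236 (edgeR). Slc25a16 had 0.27 ± 0.07, 0.15 ± 0.07 and 0.30 ± 0.07, and was called in the BD1063 group but not in the DMT group (edgeR adjusted p = 0.128), where without OGD/R 5 and DMT 5 it was called too (0.21; edgeR adjusted p = 0.00780). Slc25a4 had 0.47 ± 0.10, 0.39 ± 0.10 and 0.24 ± 0.10, and the value of the BD1063 group did not pass (edgeR adjusted p = 0.0818). That value passed in 4 of 24 alternatives, with the replicate block (edgeR adjusted p = 0.0326), with the 2 groups alone, by limma voom and without normoxia 5. The value of the DMT group was 0.25 without OGD/R 5 and DMT 5 and still passed (edgeR adjusted p = 0.00999). The DMT group also had Slc25a17 higher (0.17 ± 0.05, lost without normoxia 3 or 6 or DMT 1 or 3) and Slc25a51 lower (-0.25 ± 0.09; edgeR adjusted p = 0.0488; -0.17 with adjusted p = 0.118 without OGD/R 5 and DMT 5; lost in 8 of 11 fits that left out 1 library).

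Ratios of related carriers were compared within each library, which removes library scaling. Of 10 listed pairs 8 could be computed, in 3 comparisons, which gave 24 exact two-sided permutation tests over libraries with Benjamini-Hochberg adjustment. None of the 24 passed at 0.05, and 5 had an unadjusted p under 0.05. The pairs were listed with earlier results of these data known. The ratios use the same counts as the calls above and are no separate check of them. The smallest p that 6 against 6 or 6 against 5 libraries allow is 0.00216. Over 24 tests a single pair at that p could not pass after adjustment, whatever the size of its difference. Since counts are not divided by length, the level of a ratio has no meaning between genes and its difference between groups is what was tested.

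The ratio of Slc25a12 to Slc25a13 had a mean log2 of 2.15 ± 0.203 (SD) in normoxia and 1.36 ± 0.173 in OGD/R, with no overlap. The difference was -0.79 (exact permutation p = 0.00216, the smallest possible; adjusted p = 0.0519). In the DMT group the ratio was 1.79 ± 0.324, in all 5 libraries above the OGD/R mean (difference 0.43; exact permutation p = 0.0152; adjusted p = 0.121). The ratio of Slc25a16 to Slc25a42 was 0.80 ± 0.161 in normoxia, 1.21 ± 0.192 in OGD/R and 0.84 ± 0.312 in the DMT group. These differences were 0.41 (exact permutation p = 0.00433; adjusted p = 0.0519) and -0.37 (exact permutation p = 0.0281; adjusted p = 0.135).

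The ratio of Slc25a10 to Slc25a11 was higher in OGD/R than in normoxia by 0.40 (exact permutation p = 0.0260; adjusted p = 0.135). For Slc25a4 to Slc25a5, which rose together, the difference was -0.02 (exact permutation p = 0.563), with means of 1.36 ± 0.0432 in normoxia and 1.34 ± 0.0531 in OGD/R. Without OGD/R 5, 3 pairs passed in OGD/R against normoxia, those of Slc25a12 to Slc25a13 (-0.80), Slc25a10 to Slc25a11 (0.51) and Slc25a16 to Slc25a42 (0.47), and the last also passed in DMT against OGD/R (-0.43).

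**Figure D5:**
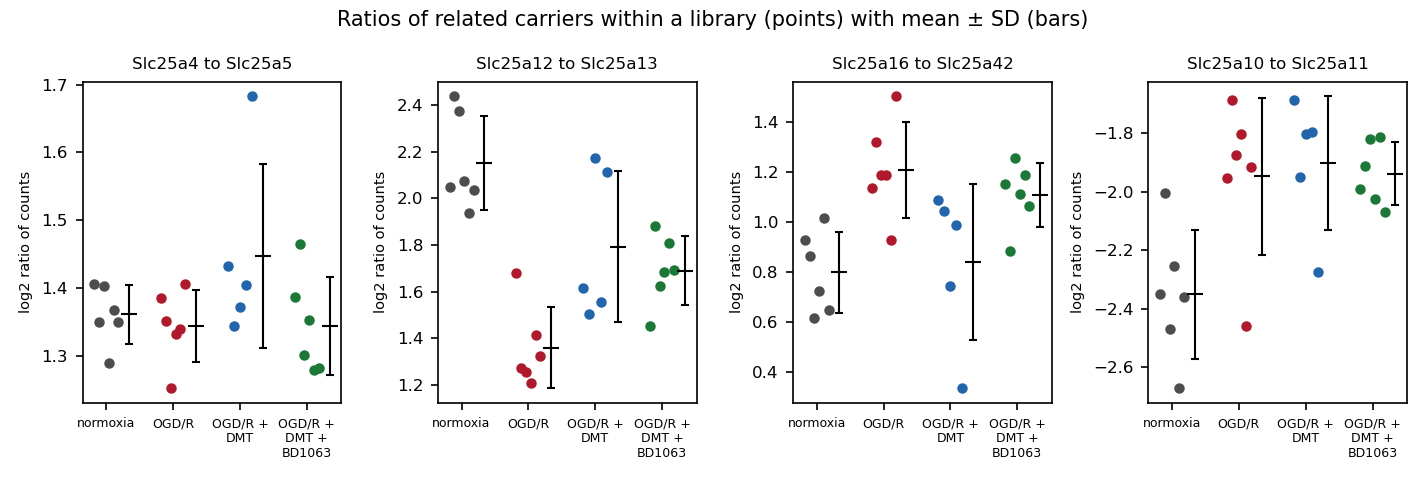
Log2 ratio of the counts of 2 related carriers in each library (points, coloured by group) with mean ± SD (bars), for 4 pairs. Slc25a12 to Slc25a13 is lower in every OGD/R library than in any normoxia library, while Slc25a4 to Slc25a5 overlaps between them. Axes do not start at 0.

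In the RefSeq annotation of GRCr8, 4 pairs of members are next to each other. In 3 of them 1 gene passed the filter on low counts and its neighbour did not, and in the other neither did. Slc25a5 held 51618 counts over all libraries and its neighbour Slc25a43, whose substrate is not settled, 9. Slc25a24 held 49234 and Slc25a54 held 1, Slc25a29 held 1140 and Slc25a47, a carrier of liver, 4, and Slc25a23 and Slc25a41 held 91 and 0.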

How the data were processed

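Libraries were made from poly(A) RNA with a directional kit and read as single 75-base reads, per the labels' protocols. The authors deposited whole-number counts per gene for 23 libraries and a table of per-million values. The submitters' processing notes list cutadapt 3.4, FastQC 0.11.9, STAR 2.7.10a, RSEM 1.3.3 and DESeq2 1.38 and the build Rnor_6.0, with no role for each. The table deposited as TPM holds CPM: each library's values were its counts divided by 1 constant. That constant is larger than the sum of the counts, which made up 58.8% of it in OGD/R 3, 62.6% in DMT 3, 68.1% in DMT 5 and 71.5% to 75.7% in the remaining libraries, so results on the deposited values carry these shares as a scaling that edgeR's TMM does not have. Whole reads were recovered for 100% of values (tolerance 0.01). They equalled the counts for 100% of values, so edgeR on them called the same 4916 genes for OGD/R and normoxia. That fit is no separate check. No column was left unused (0), and 396 identifiers carry no gene name.

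Counts were tested with edgeR 4.0.16 (R 4.3.3; TMM scaling, filterByExpr with a minimum count of 10, robust quasi-likelihood fit of 4 group means over 23 libraries), with p-values adjusted over 13834 genes. Alternatives used DESeq2 1.42.0, limma 3.58.1 (voom, and log2 of the deposited value plus 1 or 0.1, filtered at 1 CPM in 5 libraries or unfiltered), other filters, a replicate block, and left-out libraries. The fit on the recovered reads was also counted among the alternatives, although it repeats the main fit. Ratios added 0.5 counts. Scripts were tested on simulated data.

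The members, partner lists, pairs and the 5 motifs were chosen with earlier results of these data known, so no p is given for a list as a whole. The p-values of single ratio pairs carry that choice. Some genes that the rule for named genes takes in are not reported here. That rule names every member. Values in every library go to the 8 members with the smallest p in OGD/R against normoxia and the 4 smallest in DMT against OGD/R, BD1063 against DMT and BD1063 against OGD/R. For each partner list the 2 genes with the smallest p in OGD/R against normoxia are named. Gclm and Myc were named after their values were seen, because few partners passed there. Promoter sequences came from RefSeq (GRCr8).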

Additional observations from a re-analysis of the deposited data

Results flagged for a closer look

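Among the 15 carriers called in a comparison or listed for the smallest p, 10 of 60 gene and group combinations had a library far from the others of its group, by a gap to the nearest library that was large for the group's range. Over all 35 tested members 21 of 140 combinations did, 8 of them in DMT 5 and 3 in OGD/R 5. Chance marks about 1 group in 20.

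In DMT 5, Slc25a3 was 460 CPM (others of the group 329 to 349), Slc25a4 was 545 CPM (347 to 376), and Slc25a20 was 87.4 CPM (61.2 to 67.1). In the same library Slc25a30 was 17.6 CPM (24.8 to 26.7) and Slc25a51 was 14.6 CPM (20.0 to 21.2). In OGD/R 5, Slc25a3 was 421 CPM (331 to 360) and Slc25a30 was 21.6 CPM (26.4 to 29.3). Thus both libraries were high for the phosphate carrier Slc25a3 and low for the uncoupling-protein-like carrier Slc25a30. Elsewhere, Slc25a10 was 14.5 CPM in normoxia 2 (11.9 to 12.5), Slc25a16 was 53.1 CPM in BD1063 5 (46.9 to 49.2), and Slc25a51 was 27.5 CPM in normoxia 6 (20.8 to 22.997). The share of ribosomal protein counts was also highest in DMT 5 (3.53%) and OGD/R 5 (3.33%), and its part in these values was not tested.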

How the results depend on the processing

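No call changed direction under any alternative. In OGD/R against normoxia the count of members called was 11 and 8 to 12 under the alternatives, and Slc25a4, Slc25a5, Slc25a10, Slc25a13 and Slc25a45 were called in all 26. Slc25a35 was lost in 9, Slc25a2 in 5 of 25, Slc25a16 in 3, Slc25a51 in 2 and Slc25a29 in 1 (without normoxia 2), while Slc25a46 was gained in 9 and Slc25a3 in 3. On log2 of the deposited value plus 1 the Slc25a2 difference there was -0.37 instead of -0.55. In DMT against normoxia Slc25a13 and Slc25a16 were gained in 4 of 25 alternatives each. Among all genes, limma on log2 of the deposited value plus 1 called 1286 higher and 2336 lower in OGD/R against normoxia (edgeR 2608 and 2308), 686 and 1413 in DMT against normoxia (edgeR 1765 and 1519) and 1571 and 1024 in BD1063 against normoxia (edgeR 1809 and 1827). In DMT against OGD/R edgeR called 45 genes higher and 23 lower, or 369 and 714 without DMT 5. With 1 library left out the counts were 8 to 11 in OGD/R against normoxia, 0 to 0 in DMT against OGD/R and BD1063 against DMT, 0 to 1 in BD1063 against OGD/R, 5 to 8 in DMT against normoxia and 6 to 7 in BD1063 against normoxia, and ratio pairs passing were 0 to 3, 0 to 1 and 0 to 0 in the first 3 comparisons. Limma on the deposited values (pseudocount 1 or 0.1, or no filter) called 0 members in BD1063 against OGD/R and 3 in DMT against normoxia in each case, where edgeR called 1 and 7. Limma voom called 11 in DMT against normoxia and 14 in BD1063 against normoxia, where edgeR called 7 and 6. The share of all genes called rose as well, to 35.1% and 42.5% by limma voom from 23.7% and 26.3% by edgeR. Ratio pairs without OGD/R 5 and DMT 5 together, and without OGD/R 5 alone, were 3 in OGD/R against normoxia and 1 in DMT against OGD/R. The causes were not tested. On log2 of the deposited value plus 0.1 the median of all genes moved to 0.10 in BD1063 against DMT and 0.11 in BD1063 against OGD/R.

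No label says whether the replicate numbers pair the inserts. Same-numbered libraries were correlated over all tested genes, on log2 CPM less the mean of the group. Correlations passed 0.1 for 3 of 6 numbers in OGD/R against normoxia (-0.19 to 0.42). They did so for 3 of 5 in DMT against OGD/R (-0.02 to 0.58) and 4 of 5 in DMT against normoxia (-0.12 to 0.45). Numbers 1, 4 and 5 passed in each of these comparisons, and number 5 had the largest value each time. With the BD1063 group, 1 of 6 passed against OGD/R and 0 against DMT or normoxia. Number 5 was negative there (-0.34 against DMT, -0.18 against OGD/R and -0.18 against normoxia). Libraries of different numbers were not correlated, so these values have no baseline. A shared origin of same-numbered libraries was not tested. With the replicate block, 11 members were called in OGD/R against normoxia, 10 of them shared, with Slc25a17 lost and Slc25a3 gained, and 7 were called in each of the other comparisons with normoxia, with Slc25a51 lost and Slc25a3 gained in the DMT group and Slc25a4 gained in the BD1063 group. Depth limits the 11 untested members, with at most 125 counts each over all libraries.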

Other observations

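OGD/R 5 and DMT 5 were extreme in the same direction for many carriers. Both were the highest library of their group for 10 members (among them Slc25a1, Slc25a3, Slc25a4, Slc25a5, Slc25a11, Slc25a15, Slc25a20, Slc25a28 and Slc25a39) and both the lowest for 9 (Slc25a12, Slc25a13, Slc25a16, Slc25a24, Slc25a30, Slc25a36, Slc25a37, Slc25a40 and Slc25a44). They were extreme in opposite directions for 1, Slc25a33. Both libraries were thus high for the ADP/ATP and phosphate carriers and low for both aspartate/glutamate carriers and the pyrimidine carrier Slc25a36. They carry the same replicate number, and no label says what that number marks. Normoxia 5 has that number too and was the highest or lowest of its group for 17 of 35 members (16 each for OGD/R 6 and DMT 1). It also had the highest ribosomal protein share of its group (2.50%), and it stayed in the fits without OGD/R 5 and DMT 5. BD1063 5 was extreme for 11 of 35 members and had the lowest share of its group (1.97%).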
